A study of Mus musculus with 6 samples.

Results

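Hspb7 and Gsta4 were 2 of the 50 mRNA probes on a mouse circular RNA (circRNA) array, and 2 of its 14286 circRNA and mRNA probes. They were chosen by their measured values, and are taken by probe name, A_51_P346445 for Hspb7 and A_51_P112223 for Gsta4: their signals in both fractions and the ratio of these on each array had been seen. Those levels are therefore a description, given without a test. The study compared hearts of BALB/c mice in a control group with hearts of mice exposed to chronic intermittent hypoxia (CIH), a model of obstructive sleep apnea, with 3 arrays per group. In the CIH group oxygen was lowered to 6% for 60 s and restored to 21% for 60 s, in cycles of 2 min repeated 30 times per h, for 8 h per day over 8 weeks. The labels name no genotype, transgene, sex or age, and give no handling for the control mice beyond the group name. On each array the RNA precipitated with an antibody against N6-methyladenosine (m6A), called IP, was read in Cy5 and the RNA left in the supernatant in Cy3. Both fractions had been digested with RNase R, which degrades linear RNA. Whether the mRNA probes read linear RNA that was left over or circRNA of the same gene was not tested. The tissue is labelled heart, yet the labelled extraction uses a kit made for blood and a step against globin RNA.

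m6A is a methyl mark that enzymes place on adenosines of mRNA and circRNA, where it affects the fate of the RNA, and an antibody enriches RNA that carries it. Hspb7 encodes a small heat shock protein of the alpha-crystallin family, made in heart and skeletal muscle, where it protects muscle structure. Gsta4 encodes an alpha-class glutathione S-transferase that joins glutathione to reactive aldehydes from lipid peroxidation, hydroxynonenal in particular.

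Per array, between 4519 and 7220 of the 14236 circRNA probes carried the mark for well above background in the IP, and between 3862 and 6230 in the supernatant. Of the 50 mRNA probes, between 21 and 28 carried it in the IP and between 17 and 28 in the supernatant. Each mRNA probe has 10 spots and counted as well above background where more of its kept spots carried that mark than did not. All 6 arrays lay on 1 slide and came from 1 scan, with the 3 control arrays and CIH 1 in row 1 and CIH 2 and CIH 3 in row 2. Control 1 stood apart. Over the 3096 circRNAs marked in each fraction of every array, its log2 ratios had an SD of 0.35, against 0.68 to 0.997 on the others. Its supernatant followed the average IP of the 5 others (r = 0.979 across circRNAs) more closely than their average supernatant (r = 0.929). Results are therefore given with and without control 1. None of the 13 cardiomyocyte markers, 5 erythroid, 7 leukocyte, 3 endothelial, 4 fibroblast and 4 skeletal muscle markers looked for (0 of each) had an mRNA probe here, so the tissue could not be checked against them.

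Hspb7 was bright in the supernatant on 5 arrays and dimmer there on control 1. Its IP signal was lower than its supernatant signal on every array, yet above the array's 75th percentile over circRNA probes. Scaled to that percentile, the log2 IP signal of Hspb7 ran from 0.68 on control 3 to 1.52 on control 2. All 10 spots were well above background in both channels on every array, and none (0) was saturated. The mean supernatant signal, in intensity units after background subtraction and dye normalization, was 2008 on control 1, 13646 on control 2 and 5747 on control 3. It was 7278, 7069 and 9079 on CIH 1, 2 and 3. Control 1 was thus the lowest array and control 2 the highest, and the CIH arrays lay between control 3 and control 2. The mean IP signal of Hspb7 was 1363, 1109 and 438 on control 1, 2 and 3. It was 869, 792 and 907 on CIH 1, 2 and 3. In this fraction control 1 was the highest array and control 3 the lowest, and the groups overlapped. The spots of 1 array agreed closely, with a coefficient of variation of 1.58% to 5.13% in the supernatant and 2.32% to 9.59% in the IP.

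Gsta4 was a dim probe. Its supernatant spots were well above background in 0 of 10 on control 1, 10 of 10 on control 2 and 0 of 10 on control 3, and in 9, 10 and 10 of 10 on CIH 1, 2 and 3. The probe was thus measured in the supernatant of 1 of 3 control arrays and 3 of 3 CIH arrays. Control 3 had the fewest probes well above background in the supernatant of any array, 3862 circRNA and 17 mRNA probes. The CIH arrays had 4233 to 5800 and 19 to 25. Whether the missing Gsta4 mark there reflects the array or the gene was not tested. Its mean supernatant signal was 51.8, 319 and 144 on control 1, 2 and 3, and 293, 432 and 370 on CIH 1, 2 and 3. Control 2 lay within the range of the CIH arrays, and the other control arrays below it. In the IP the probe was not well above background on any array, with 3 of 10 marked spots on CIH 3 and 0 on each of the others. The scanner software's laxer mark, for a signal significantly above background, was carried in the IP by 3, 10 and 4 of the 10 spots on control 1, 2 and 3 and by 6, 5 and 10 on CIH 1, 2 and 3. In the supernatant 6 of the 10 spots carried it on control 1 and all 10 on each other array. The mean IP signals ran from 40.1 on control 1 to 73.4 on CIH 1, and after background subtraction up to 5 spots of an array lay at or below 0. The spots spread far more than those of Hspb7, with coefficients of variation of 8.79% to 47.0% in the supernatant and 24.7% to 73.3% in the IP.

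**Figure D1:**
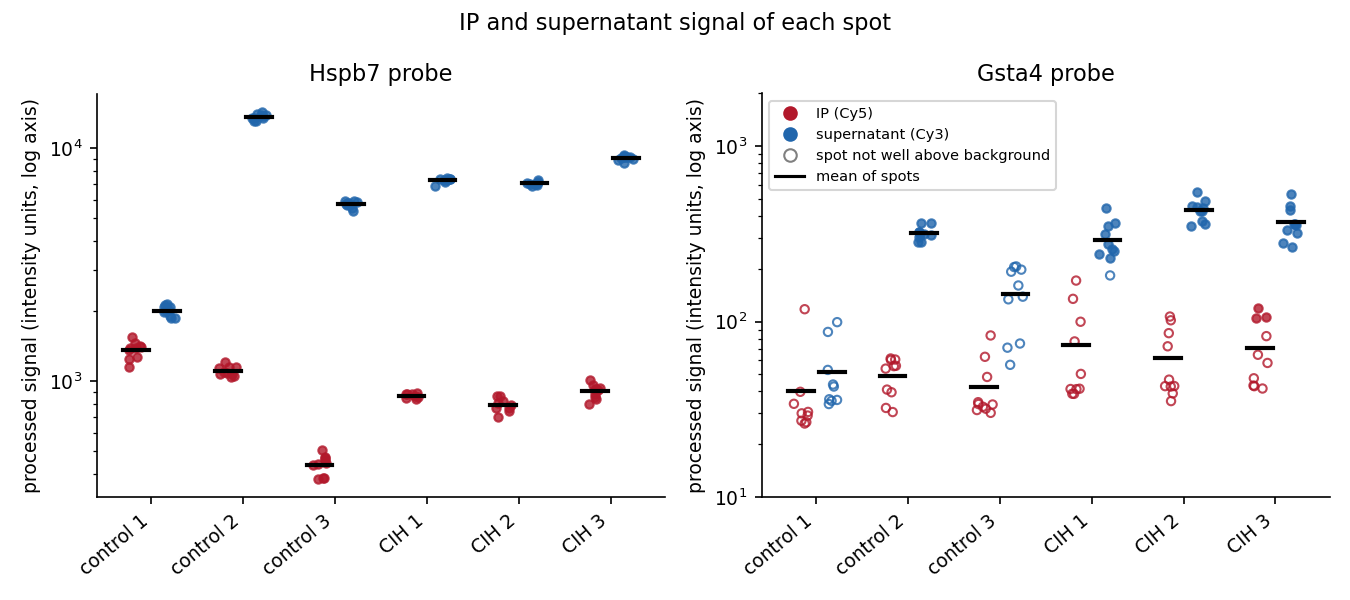
Processed signal in intensity units on a log axis for every spot of the Hspb7 and Gsta4 probes kept after outlier removal, on 3 control and 3 CIH arrays, with IP in red, supernatant in blue and a bar at the mean of the spots; open points are not well above background. The Hspb7 supernatant lies between 5747 and 13646 on 5 arrays and at 2008 on control 1, and no Gsta4 IP spot is filled except 3 on CIH 3.

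The ratio of the fractions put Hspb7 on the supernatant side on every array. Before centring, the supernatant signal was 12.3 times the IP signal on control 2 and 13.2 times on control 3. It was 8.38, 8.94 and 10.03 times the IP signal on CIH 1, 2 and 3, but 1.48 times on control 1. After centring the log2 of IP over supernatant on each array's median over circRNA probes, Hspb7 stood at -0.46 on control 1, -3.57 on control 2 and -3.68 on control 3, and at -2.90, -3.18 and -3.30 on CIH 1, 2 and 3. The mean over the 6 arrays was -2.85 ± 1.20 (SD, n = 6), and -3.33 ± 0.31 over the 5 arrays without control 1. Spots of 1 array, which measure the technical spread alone, had an SD of 0.06 to 0.16 in this ratio. The lowest spot on control 1 was at -0.67 and the highest spot on any other array at -2.77. From low to high the arrays ran control 3, control 2, CIH 3, CIH 2, CIH 1, control 1. The spot ranges of the first 4 overlapped from each array to the next, while those of CIH 2, CIH 1 and control 1 did not overlap with the next in order.

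Dye normalization within the array moved the uncentred ratio of Hspb7 away from 0. From the background-subtracted signals before dye normalization, and before centring, the log2 ratio was -0.12, -2.79 and -2.80 on control 1, 2 and 3 and -2.53, -2.40 and -2.08 on CIH 1, 2 and 3. After dye normalization, again before centring, these were -0.56, -3.62, -3.72, -3.07, -3.16 and -3.33 in the same order. Control 1 was the array nearest 0 and control 3 the farthest from it in both. Once centred on the circRNAs, the mean over the 6 arrays was -2.76 ± 1.10 without dye normalization and -2.85 ± 1.20 with it (SD, n = 6). Normexp, a background correction that adds an offset of 50 and so shrinks ratios, was run on raw median signals without dye normalization. The mean over the 6 arrays was then -1.39 ± 0.65 (SD, n = 6). With no dye swap, a probe's own response to the dyes is part of each ratio and cancels only between arrays.

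The Gsta4 ratio also lay on the supernatant side, but with its IP not well above background on any array its size is uncertain. As computed from the processed signals, the centred log2 ratio was -0.35 on control 1, -2.69 on control 2 and -1.68 on control 3, and -2.01, -2.94 and -2.44 on CIH 1, 2 and 3. Control 1 was again the array nearest 0, and the other control arrays overlapped with the CIH arrays. The mean was -2.02 ± 0.94 (SD, n = 6), and -2.35 ± 0.51 over the 5 arrays without control 1. On control 1, where neither channel was well above background, 3 of the 10 spots carried a deposited log10 ratio of 0. Because the IP was so dim, the fold was also set against the lowest IP signal among probes well above background on the same array. On control 2 the Gsta4 supernatant was 3.86 times this signal. It was 1.501, 2.80 and 4.01 times this signal on CIH 1, 2 and 3, before centring and open to dye bias. That lowest signal is the value of a single probe and not a detection limit, so these folds are not strict lower bounds. No such fold is given for control 1 and control 3, where the supernatant was not well above background either and the fold would be under 1. With normexp the mean log2 ratio of Gsta4 was -0.21 ± 0.15 (SD, n = 6).

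**Figure D2:**
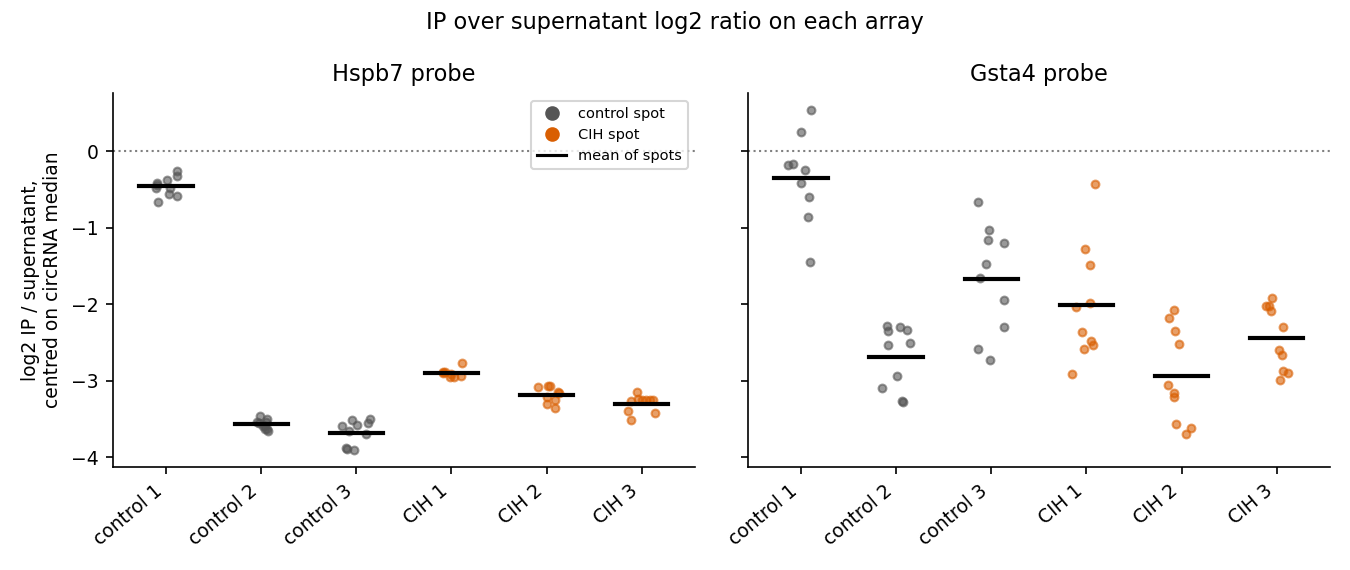
Log2 ratio of IP over supernatant, centred on each array's median over circRNA probes, for every kept spot of the Hspb7 and Gsta4 probes on control (grey) and CIH (orange) arrays, with a bar at the mean of the spots and a dotted line at 0. Hspb7 lies between -3.68 and -2.90 on 5 arrays and at -0.46 on control 1, while the Gsta4 spots scatter more widely on each array.

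The comparison of CIH with control hearts asked whether the m6A fraction, or the amount in either fraction, differed between the groups. Neither gene passed the threshold, a Benjamini-Hochberg adjusted p under 0.05 in limma over all circRNA and mRNA probes tested, in any measure in which it was tested. Channel signals were compared on the log2 scale against each array's 75th percentile over circRNA probes. The log2 ratio of Hspb7 averaged -2.57 ± 1.83 over control and -3.13 ± 0.21 over CIH arrays (SD, n = 3), a difference of -0.56 with SE 0.76 (limma adjusted p = 0.999). Over all 6924 probes tested in the log ratio, 0 were called in limma (percent called 0), where an unadjusted p under 0.05 was reached by 45 higher and 45 lower probes, and 0 were called without moderation. That balance moved with the scaling, to 34 higher and 68 lower with spike-in scaling and 71 and 9 with normexp. The median difference over these probes was -0.03.

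The sign of the Hspb7 difference turned with control 1. Without it, the control arrays averaged -3.62 ± 0.08 (SD, n = 2) against -3.13 ± 0.21 over the CIH arrays (SD, n = 3), a difference of 0.50 with SE 0.18 (limma, unadjusted p = 0.0216, adjusted p = 0.785). The 3 CIH arrays then all lay above both control arrays, as they also did with spike-in scaling, where the controls were at -3.68 and -3.63 and the CIH arrays between -3.30 and -3.15. With normexp they overlapped, with controls at -2.25 and -1.46 and CIH arrays between -1.83 and -0.89. Without control 1, 1 of 6284 probes was called in the log ratio in limma, and it was not Hspb7. An unadjusted limma p under 0.05 was reached there by 220 higher and 148 lower probes. How many probes had groups that did not overlap was not counted.

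In the IP signal Hspb7 had nearly the same mean in both groups. Its log2 IP signal was 1.46, 1.52 and 0.68 on control 1, 2 and 3 and 1.51, 1.02 and 1.10 on CIH 1, 2 and 3. The means were 1.22 ± 0.47 and 1.21 ± 0.27 (SD, n = 3), a difference of -0.01 with SE 0.25 (limma adjusted p = 0.990), smaller than the spread within a group. In this measure 89 of 6282 probes were called in limma, all of them higher in CIH, which is 1.42% of those tested. That count rested on single arrays and on moderation: it was 0 without CIH 1, without CIH 2 and without moderation, 37 without control 1 and 181 without control 2, and with median scaling 33 were higher and 4 lower. The Gsta4 probe did not pass the filter on dim probes in the IP, and since it was well above background on no array of either group, no group difference is given for it.

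In the supernatant control 1 was the lowest of the 6 arrays for both genes. The log2 supernatant signal of Hspb7 was 2.00, 5.06 and 4.40 on control 1, 2 and 3 and 4.47, 4.10 and 4.37 on CIH 1, 2 and 3. The difference was 0.49 with SE 0.67 with all arrays (limma adjusted p = 0.749) and -0.42 with SE 0.22 without control 1 (limma adjusted p = 0.938). Over all 5432 probes tested, 0 were called in limma (percent called 0), where an unadjusted p under 0.05 was reached by 193 higher and 59 lower probes, and 0 were called without moderation. With median scaling these were 133 higher and 367 lower, and without moderation 58 and 152.

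For Gsta4, the log2 supernatant signal was -3.39, -0.36 and -1.06 on control 1, 2 and 3 and -0.21, 0.05 and -0.28 on CIH 1, 2 and 3. All CIH arrays lay above all control arrays, with the nearest pair, control 2 and CIH 3, at -0.36 and -0.28. How many of the 5432 probes tested had groups that separate in this way was not counted. The Gsta4 difference was 1.46 with SE 0.74 (limma adjusted p = 0.685), and 0.57 with SE 0.33 without control 1 (limma adjusted p = 0.938). The order of the nearest arrays depended on the scaling, since the groups overlapped with median scaling and with spike-in scaling, and in the processed signals before scaling control 2 (319) lay above CIH 1 (293). With normexp the difference was 0.10. On control 1 and control 3 the probe was not well above background, so the control mean rests on 1 array that was. For the log2 ratio of Gsta4, whose IP was not well above background on any array, no group difference is given, and it was not called. For a single value, 3 arrays against 3 cannot give an exact two-sided permutation p below 0.1. The labels do not say that the samples of a group came from separate animals, so these p-values measure the spread between samples, which may be technical.

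**Figure D3:**
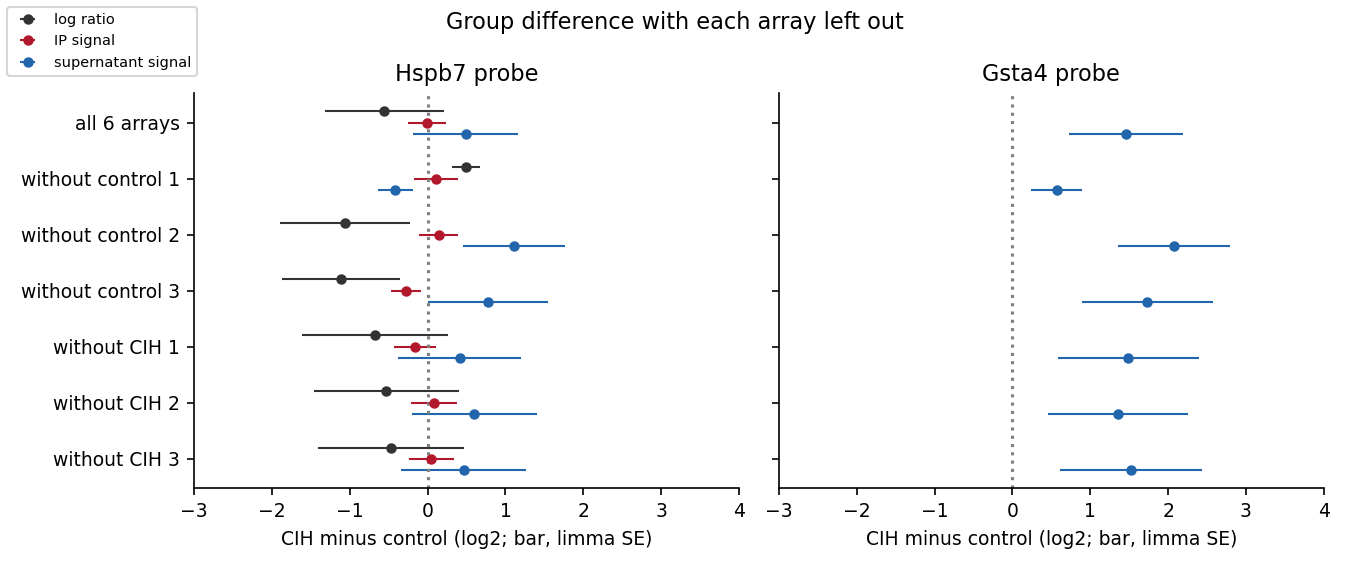
Difference between CIH and control on the log2 scale for the Hspb7 and Gsta4 probes in the log ratio, IP signal and supernatant signal, with all 6 arrays and with each array left out in turn; bars are limma standard errors, and the Gsta4 IP and log ratio are not drawn because its IP was well above background on no array. For Hspb7 the log ratio difference is -0.56 with all arrays and 0.50 without control 1, and the supernatant difference turns from 0.49 to -0.42.

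Of the 50 mRNA probes, 27 passed the filter for the log ratio, 26 for the IP and 24 for the supernatant, and 20 were well above background in no channel of any array. Hspb7 had the lowest log2 ratio of the 27 on each of the 6 arrays. The order among probes includes each probe's own dye response, and Gsta4 is given no rank since its IP was not well above background on any array. Over the 5 arrays without control 1, the mean log2 ratio of the 25 other probes ran from -2.29 to 1.19 with a median of 0.38, and 5 of the 25 were below 0. Acaa2, which encodes a thiolase of mitochondrial fatty acid oxidation and is named here after its values were seen, was at the low end with -2.29. It was well above background on 3 arrays in the IP and 4 in the supernatant, so its ratio is less certain. The next was Apoe, an apolipoprotein gene, with -0.72, well above background in both channels on all 6 arrays. Among the 3096 circRNAs in both channels, between 0.614% and 2.94% had a lower log2 ratio than Hspb7 on the same array. Across the 27 tested mRNA probes, 1 was called in any measure, the IP signal of H2-Q7, an MHC class I gene. With all 6 arrays, the median difference in the log2 ratio between CIH and control over the 25 other probes was 0.04, with a range from -1.29 to 0.59. The difference of Hspb7, -0.56, lay toward the low end, with only Acaa2 (-1.29) and Lhfp (-0.96) lower. On control 1 the log2 ratios of Acaa2 and Lhfp were 2.59 and 2.34 above their medians over the other 5 arrays. That of H2-Q7 was 1.86 above, with a difference of 0.15. The differences of the other probes were not compared without control 1.

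On control 1 the supernatant signals of both genes lay below those of the other arrays, while the median circRNA lay above. There the log2 ratio of Hspb7 was 2.84 above its median over the other 5 arrays. Its log2 supernatant signal was displaced by -2.40 and its log2 IP signal by 0.36. Over the 3096 circRNAs the median displacements were 0.00, 0.37 and 0.27, and 45 of them (1.45%) were displaced upwards in the log ratio at least as far as Hspb7. Those circRNAs had to be well above background on control 1 too. Among the 3537 that were so in the supernatant of the other 5 arrays, whatever their level on control 1, 108 (3.05%) went as far upwards as Hspb7. For Gsta4 the displacement was -3.11 in the supernatant and -1.04 in the IP, with neither channel well above background on control 1. In the supernatant 78 of the 3537 circRNAs (2.21%) fell at least as far, and in the IP 88 (2.49%). Gsta4 itself would not have met the rule for these circRNAs, since its supernatant was not well above background on control 3. Its IP was not well above background on any array, so its IP displacement is one near background. These shares therefore set Gsta4 against unlike probes. Over the 25 other mRNA probes tested, the displacement in the log ratio ran from -0.95 to 2.59 with a median of -0.20, the highest being that of Acaa2.

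**Figure D4:**
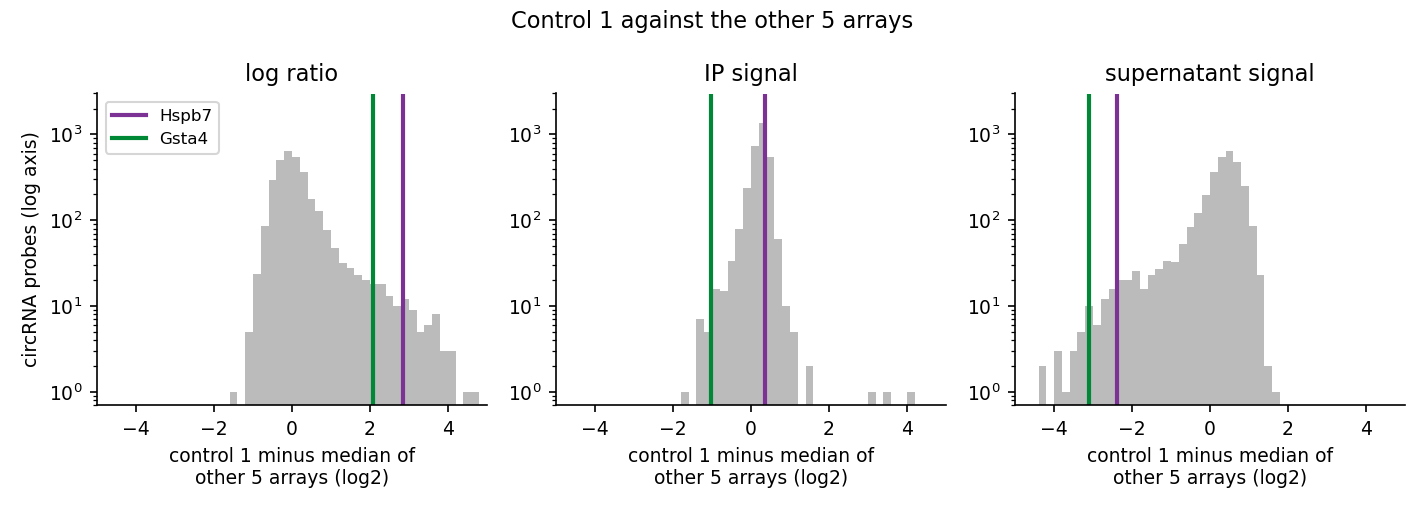
Number of circRNA probes (log axis) by the difference of control 1 from the median of the other 5 arrays on the log2 scale, in the log ratio, IP signal and supernatant signal, for the 3096 circRNAs marked in each fraction of every array; lines mark Hspb7 (purple) and Gsta4 (green). Hspb7 stands at 2.84 in the log ratio and at -2.40 in the supernatant, in the tails of both distributions, and at 0.36 in the IP, within the bulk.

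The mRNA probes whose pattern over the 6 arrays was most like that of each gene were found by the mean absolute difference of log2 ratios after each probe's own mean was taken off, among named probes that every array marked in at least 1 fraction. For Hspb7, with 18 candidates, these were H2-Q7 at 0.46, Lhfp at 0.51 and Apoe at 0.61. Gsta4 and Acaa2, marked on 4 and 5 arrays, were not candidates. For Gsta4, from ratios whose IP was not well above background and with 19 candidates, they were Gm9789 at 0.39, Hspb7 itself at 0.44 and Lhfp at 0.47. Likeness of this kind was not limited to mRNA probes: 266 of 4386 circRNAs were closer to Hspb7 than H2-Q7 was, and 110 closer to Gsta4 than Gm9789 was. It was not computed without control 1. H2-Q7 was at 0.99 on control 1 and 0.85 on CIH 1, where Hspb7 was at -0.46 and -2.90. Lhfp was well above background in the IP on 6 arrays but in the supernatant on 3.

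The array carries few other genes of either pathway. Of 21 genes of small heat shock proteins and chaperones looked for, 1 had an mRNA probe, Hspb7 itself. Dnajc11, a DnaJ family gene not on the list, also had a probe, well above background on 0 arrays. Of 35 genes of glutathione use and oxidative defence 1 had a probe, Gsta4, and of 14 hypoxia response genes 0 had one. Prdx2, a peroxiredoxin gene that reduces hydrogen peroxide and was not on the list, also had a probe. Its log2 ratio was -0.03, 0.19 and -0.02 on control 1, 2 and 3 and -0.07, -0.15 and -0.21 on CIH 1, 2 and 3, near the circRNA median on every array, control 1 included.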

How the data were processed

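The 6 files hold 1 array each, as read by Agilent Feature Extraction 11.0.1.1 with its 2-colour protocol, per the file headers. Its signals are deposited as intensity on a linear scale, background-subtracted and dye-normalized within the array by the authors' software, which puts a small positive value where a spot is not above background. Per the file headers, the ratio column holds log10 values of red over green, which the labels' dyes make IP over supernatant.

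Here log2 ratios were recomputed from the processed signals, spots with an outlier mark were dropped (2 Hspb7 spots on CIH 1 and 1 on CIH 2, and 1 Gsta4 spot on control 1), and the log2 values of a probe's spots were averaged. Probes well above background on at least 3 arrays, in either channel for the ratio and in the channel tested otherwise, were fitted with limma 3.58.1 in R 4.3.3 (two-sided, without covariates, variances moderated along an intensity trend). The tests were tried on simulated data. The number of arrays limits the precision.

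The members and lists were chosen with earlier results of these data known. Besides both genes, the 3 mRNA probes most like each in pattern are named. Accessions gave gene names to 46 of the 50 mRNA probes in RefSeq's table of GRCm38.p6, used for names only; probe sequences and positions were not analysed here. Alternatives covered background correction, scaling, filters, spots, moderation, array weights, leaving out each array and a replicate block; slide row and signals without dye normalization were added after the data were seen.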

Additional observations from a re-analysis of the deposited data

How the results depend on the processing

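No alternative brought Hspb7 or Gsta4 past the threshold in any measure tested. The Gsta4 supernatant difference (1.46) was above 0 in all alternatives run, but was 0.10 with normexp and 0.67 with array weights and ran from 0.57 without control 1 to 2.08 without control 2. The Hspb7 log ratio difference (-0.56) was 0.16 with array weights, -0.017 with normexp and -0.33 with slide row as a block, and ran from -1.11 without control 3 to 0.50 without control 1; the Hspb7 supernatant difference (0.49) was -0.27 with array weights, 0.11 with normexp and 0.16 with median scaling, and ran from -0.42 without control 1 to 1.11 without control 2. The Hspb7 IP difference (-0.01) was 0.033 with normexp, 0.094 with spike-in scaling, 0.085 with quantile normalization and 0.29 with slide row as a block. It was -0.28 with median scaling and -0.26 with array weights. With single arrays left out it ran from -0.28 to 0.14 (0.11 without control 1, 0.09 without CIH 2, 0.05 without CIH 3). The mean log2 ratio over arrays moved to -1.39 for Hspb7 and -0.21 for Gsta4 with normexp. The count of probes called in the IP signal (89) was 37 with normexp, 37 with median scaling (33 higher, 4 lower), 41 with quantile normalization, 291 without the filter, 33 among probes above background on all arrays, 0 without moderation, 308 with array weights, 10 with slide row as a block and 0 to 181 with single arrays left out (37 without control 1, 181 without control 2, 0 without CIH 1 or CIH 2). It was 1 in the supernatant with normexp, and in the log ratio 0 to 1 with single arrays left out. The cause was not tested.

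Same-numbered samples did not clearly pair: their deviations correlated at 0.24, 0.10 and -0.03 in the log ratio, at -0.02, 0.02 and -0.24 in the IP signal and at 0.13, 0.27 and -0.01 in the supernatant. With a replicate block the differences of both genes were those of the main setting by construction, adjusted p stayed at 0.673 or above, and 2 probes were called in the IP signal. Slide as a block was not run, since all arrays lie on 1 slide. The filter left the Gsta4 IP signal out of every fit except the one without the filter, where it was not called (limma adjusted p = 0.861). The strictest filter left Gsta4 out in all measures. Signal close to background limits what can be said of Gsta4.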
